A study of Mus musculus with 6 samples.

Results

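The 10 genes described here encode Fc receptor subunits and granule components best known from mast cells and basophils, and they are Fcer1g, Fcgr3, Fcer1a, Ms4a2, Tph1, Hdc, Cpa3, Srgn, Gzmb and Stx11. Every probe annotated to 1 of them was taken, which gave 13 probes among the 46632 on the array. Of the genes, 7 had 1 probe and 3 (Cpa3, Srgn and Stx11) had 2. The 6 arrays, Illumina bead arrays of a single colour, held RNA of erythroid progenitors from mouse fetal liver, 3 from SclRER/RER and 3 from WT. The SclRER/RER cells express SCL, the product of Tal1, in a form that is mutated in DNA binding, and the WT cells express the normal protein. Both genotypes had the strain C57Bl/6, came from embryonic day E12.5 livers and were selected as Ter119- after an expansion of 3 days, which leaves out maturing red cells. The labels do not state that the replicates were separate embryos or separate cultures. The p-values therefore describe the spread among these 6 samples alone, part of which could be technical.

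Mast cells and basophils carry the high-affinity IgE receptor, in which the alpha chain (Fcer1a) binds IgE and the beta (Ms4a2) and gamma (Fcer1g) chains pass the signal on. Cross-linking of bound IgE leads to the release of granules that hold histamine, in rodents also serotonin, and proteases packed on the proteoglycan serglycin. In fetal liver these lineages share progenitors with red cells and megakaryocytes, and SCL is a basic helix-loop-helix factor that acts in all of them, binding E-boxes as a dimer and joining GATA factors in larger complexes. The 10 genes were chosen by their known signals and differences in this same contrast, so their differences between genotypes are given as descriptions, without p-values.

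Because the mutation alters DNA binding, the sequence around the start of the genes is shown for the granule protease gene Cpa3, which was higher in SclRER/RER cells, and for Fcer1g, Tph1 and Stx11, which were lower there. Each window runs 250 bases before to 50 bases after an annotated start in RefSeq (GRCm38.p6), and all 10 genes matched, with 13 windows. Capitals mark E-boxes (CANNTG) and GATA motifs (GATAA, or TTATC on the other strand). All 4 windows lie on the minus strand, at chr3:20242132-20242431 for Cpa3, chr1:171234300-171234599 for Fcer1g, chr7:46667328-46667627 for the second of the 2 starts of Tph1 and chr10:12964210-12964509 for Stx11.
Cpa3: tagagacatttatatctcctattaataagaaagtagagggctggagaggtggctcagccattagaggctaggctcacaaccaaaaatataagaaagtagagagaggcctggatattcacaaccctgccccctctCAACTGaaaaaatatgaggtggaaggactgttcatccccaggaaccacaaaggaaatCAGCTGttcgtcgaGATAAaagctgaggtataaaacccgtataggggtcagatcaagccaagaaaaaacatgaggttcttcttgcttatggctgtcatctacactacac
Fcer1g: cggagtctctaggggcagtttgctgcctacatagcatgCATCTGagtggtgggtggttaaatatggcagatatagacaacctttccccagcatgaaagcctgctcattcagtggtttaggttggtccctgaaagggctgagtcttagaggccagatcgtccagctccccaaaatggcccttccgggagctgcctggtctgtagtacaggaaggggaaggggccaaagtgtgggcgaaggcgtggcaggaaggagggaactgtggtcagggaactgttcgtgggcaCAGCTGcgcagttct
Tph1: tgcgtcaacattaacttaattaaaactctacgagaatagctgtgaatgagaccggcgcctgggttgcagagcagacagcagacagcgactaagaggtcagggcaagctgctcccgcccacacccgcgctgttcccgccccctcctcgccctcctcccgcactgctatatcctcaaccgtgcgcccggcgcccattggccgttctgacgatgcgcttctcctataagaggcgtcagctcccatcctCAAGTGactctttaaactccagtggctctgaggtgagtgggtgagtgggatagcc
Stx11: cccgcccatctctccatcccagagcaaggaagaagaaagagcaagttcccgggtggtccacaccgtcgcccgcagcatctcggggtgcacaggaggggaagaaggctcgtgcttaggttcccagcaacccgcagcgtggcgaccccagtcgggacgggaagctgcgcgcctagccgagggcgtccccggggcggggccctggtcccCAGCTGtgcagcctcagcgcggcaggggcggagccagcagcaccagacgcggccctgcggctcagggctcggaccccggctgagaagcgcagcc

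The Cpa3 window holds an E-box that starts 59 bases before the annotated start and is followed, after 8 bases, by GATAA. This spacing was searched on both strands as CTG, 8 or 9 bases of any kind and GATAA, so that its CTG lies within the E-box when CA and any 1 base precede it. It occurred in 1 of the 13 windows, that of Cpa3, and in 1.46% of 32851 RefSeq windows of the same length. E-boxes alone were in 9 of the 13 windows and in 72.3% of all windows. GATAA was in 3 of the 13 windows, those of Fcer1a, Ms4a2 and Cpa3, and in 25.4% of all windows, and 2 windows held both an E-box and GATAA, as did 19.4% of all. The Fcer1g window has E-boxes 212 bases before and 36 bases into the transcribed side of its start, the Stx11 window has 1 at 44 bases before, and the Tph1 window shown has 1 at 5 bases before. The windows of Fcgr3, which was also higher in SclRER/RER cells, and of the other start of Tph1 contain neither motif and are not printed. That every printed window holds a motif follows from this choice. A match is a string of letters and no measurement of binding.

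The signals were background corrected and normalized, and all levels below are log2 intensities on that scale. A probe counted as detected on an array at a detection p below 0.01, which lay at log2 levels of 5.97 to 6.42 depending on the array. A level below that floor is only a bound. A probe was kept for the fit across all probes when it was detected on 3 or more arrays, and a call means an adjusted p below 0.05 in that fit (limma, Benjamini-Hochberg). Mean signals per array before processing ranged over 385 to 546 intensity units, and 11084 to 12678 probes were detected on each. Of 13 listed erythroid markers 11 had a named probe and all 11 were kept, while markers of hepatocytes, endothelium, B cells, natural killer and T cells were mostly below detection (at most 2 detected on any array in each of these lists). In a bulk sample, fewer cells of a type and less RNA per cell cannot be told apart.

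Of the 13 member probes 8, of 7 genes, were kept, and 5 probes (the only probes of Fcer1a, Ms4a2 and Gzmb, and the dimmer probes of Cpa3 and Stx11) were not. Of the kept probes 5 were called, 2 higher (Fcgr3 and Cpa3) and 3 lower (Fcer1g, Tph1 and Stx11) in SclRER/RER cells, and 6.58% of the 11578 kept probes were called across the array. The values of 6 of the 8 kept probes did not overlap between genotypes, against 24.5% of all kept probes. Both counts are fixed in part by how the genes were chosen, and nothing is read from them or from whether a member's call holds under another setting. The median difference of the 7 genes was 0.04, and that of all 6855 genes tested was 0.02.

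**Figure D1:**
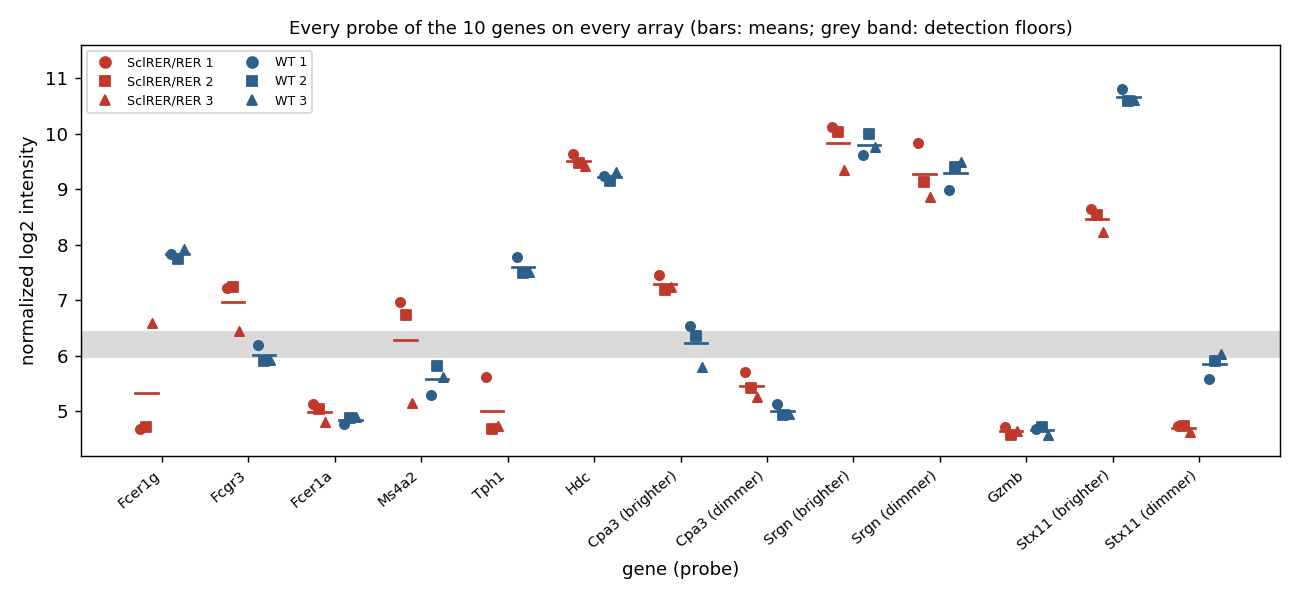
Normalized log2 intensity (vertical axis) of the 13 probes (horizontal axis) on each array, SclRER/RER left of WT for each probe, with 1 point per array, bars at group means and a grey band over the detection floors of the 6 arrays (5.97 to 6.42). Fcer1g, Tph1 and the brighter Stx11 probe lie lower in SclRER/RER cells, Fcgr3 and the brighter Cpa3 probe lie higher, and Ms4a2 spreads widely among the SclRER/RER arrays.

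Among the Fc receptor genes, the gamma chain gene Fcer1g was lower and the ligand-binding receptor gene Fcgr3 was higher in SclRER/RER cells. Fcer1g (probe ILMN_1245543, chromosome 1) encodes the gamma chain that the IgE receptor and activating IgG receptors share. Its 3 SclRER/RER levels were 4.69, 4.71 and 6.59, and its 3 WT levels were 7.83, 7.75 and 7.93. SclRER/RER array 3 stood apart from the other two: it was the only 1 of the 3 on which the probe was detected, at a detection p of 0.00873, and it still lay 1.16 below the lowest WT array. Without the WT arrays the probe would not have passed the detection filter. The means were 5.33 ± 1.09 in SclRER/RER cells and 7.84 ± 0.09 in WT cells (SD, n = 3 each), a log2 difference of -2.51 (SE 0.44). With all values below detection raised to the floor the difference was -1.51, since 2 of the SclRER/RER values carry only the information that they are low. Before any correction the signals were 67.2, 63.5 and 145.1 in SclRER/RER cells against 287.4, 309.8 and 280.8 in WT cells, so the order of the groups was already present in the scanner values. The call was lost with no detection filter and when WT array 2 or WT array 3 was left out, and the differences without 1 array were -3.17 to -2.12.

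Fcgr3 (ILMN_2687403, chromosome 1) encodes an activating low-affinity IgG receptor that needs the gamma chain for its surface expression. Its levels were 7.22, 7.24 and 6.45 in SclRER/RER cells and 6.19, 5.90 and 5.93 in WT cells. It was thus detected on all 3 SclRER/RER arrays, on array 3 only just (detection p 0.00998). None of the WT arrays detected it, with detection p of 0.0143, 0.0262 and 0.0235. The probe therefore passed the detection filter through the SclRER/RER arrays alone, and only by its narrow detection on array 3. The groups did not overlap, with means of 6.97 ± 0.45 in SclRER/RER cells and 6.01 ± 0.16 in WT cells (SD, n = 3 each) and a difference of 0.96 (SE 0.21). Since the WT level is only a bound, the gene was at least 1.52-fold higher in SclRER/RER cells, setting the mean of the detected group against each WT array's detection floor. This bound holds for the processing used here, since the difference was 0.57 without background correction and 0.55 on the authors' normalized values. The call was lost in 7 of 16 alternatives: with no detection filter, with undetected values raised to the floor, and without SclRER/RER array 1 or 2 or any WT array.

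Of the chains that make the IgE receptor specific, alpha was detected on no array and beta on 2 SclRER/RER arrays only. Fcer1a (ILMN_2771342, chromosome 1) was detected on no array, with levels of 5.14, 5.04 and 4.81 in SclRER/RER cells and 4.77, 4.88 and 4.89 in WT cells. These values overlap and lie below the floor. Ms4a2 (ILMN_2742703, chromosome 19) was detected on 2 SclRER/RER arrays and no WT array. Its levels were 6.97, 6.73 and 5.15 in SclRER/RER cells and 5.29, 5.82 and 5.62 in WT cells. SclRER/RER array 3 was undetected like the 3 WT arrays, so the groups overlap, and the probe was not kept, with a difference of 0.71 (SE 0.47, 95% interval -0.43 to 1.84). SclRER/RER array 3 also had the lowest SclRER/RER level for Fcgr3 and the highest for Fcer1g.

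Of the genes for amine synthesis, that for serotonin lay lower on every SclRER/RER array than on any WT array. That for histamine lay slightly higher. Tph1 (ILMN_2485639, chromosome 7) encodes tryptophan hydroxylase, the rate-limiting enzyme of serotonin synthesis outside neurons. Its levels were 5.61, 4.69 and 4.73 in SclRER/RER cells and 7.78, 7.49 and 7.50 in WT cells. None of the SclRER/RER arrays and all 3 WT arrays detected it, and 1.88 separated the highest SclRER/RER from the lowest WT level. The means were 5.01 ± 0.52 in SclRER/RER cells and 7.59 ± 0.16 in WT cells (SD, n = 3 each), and the difference was -2.58 (SE 0.24). As a bound it was at least 2.53-fold lower in SclRER/RER cells, and it passed the detection filter through the WT arrays alone. The difference was -1.67 without background correction, -1.34 with undetected values raised to the floor and -2.77 to -2.45 with 1 array left out.

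Hdc (ILMN_1256122, chromosome 2) encodes histidine decarboxylase, which makes histamine. It was detected on every array, at 9.64, 9.47 and 9.41 in SclRER/RER cells and 9.23, 9.14 and 9.30 in WT cells. All SclRER/RER values lay above all WT values, but only by 0.11 at the nearest. The means were 9.51 ± 0.12 in SclRER/RER cells and 9.22 ± 0.08 in WT cells (SD, n = 3 each), a difference of 0.28 (SE 0.12) that was called neither in the fit reported here nor in any of 17 alternatives.

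The granule genes comprised 1 that was higher, 1 with no clear difference and 1 below detection. Cpa3 encodes carboxypeptidase A3, a protease abundant in mast cell granules, and is on chromosome 3. Its brighter probe (ILMN_2609590) had levels of 7.45, 7.19 and 7.24 in SclRER/RER cells and 6.53, 6.35 and 5.80 in WT cells. The groups were separated by 0.66, and the gene was detected on all 3 SclRER/RER arrays and on 1 of the 3 WT arrays. Without the SclRER/RER arrays this probe would not have passed the detection filter. The means were 7.29 ± 0.14 in SclRER/RER cells and 6.23 ± 0.38 in WT cells (SD, n = 3 each), a difference of 1.07 (SE 0.19), or 0.84 with undetected values raised to the floor. The dimmer probe (ILMN_1246690) was detected on no array, with levels of 5.70, 5.42 and 5.26 in SclRER/RER cells and 5.13, 4.94 and 4.96 in WT cells. Its detection p was 0.0187, 0.0686 and 0.102 in SclRER/RER cells and 0.148, 0.302 and 0.277 in WT cells. All these levels lie below the floor, so no size is read from their difference. The call of the brighter probe was lost with no detection filter and without WT array 2, its difference was 0.66 without background correction, and without any 1 array its difference was 0.86 to 1.22.

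Srgn (chromosome 10) encodes serglycin, the proteoglycan core on which granule proteases and amines are stored. Its brighter probe (ILMN_2751527) had levels of 10.11, 10.02 and 9.34 in SclRER/RER cells and 9.61, 9.99 and 9.76 in WT cells. The dimmer probe (ILMN_2722732) had levels of 9.83, 9.12 and 8.86 in SclRER/RER cells and 8.98, 9.39 and 9.48 in WT cells. With both probes the groups overlapped, SclRER/RER array 3 being the lowest of all 6 and SclRER/RER array 1 the highest. The differences were 0.04 (SE 0.21, 95% interval -0.44 to 0.52) and -0.01 (SE 0.25, 95% interval -0.58 to 0.55), so a change of up to about these bounds in either direction is not excluded by 3 arrays a genotype. Gzmb (ILMN_2653555, chromosome 14), the granzyme of cytotoxic granules that mouse mast cells can also make, was detected on no array, with levels of 4.58 to 4.71 in SclRER/RER cells and 4.58 to 4.71 in WT cells.

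Stx11 (chromosome 10), a syntaxin required for granule release in cytotoxic lymphocytes and platelets, was lower on every SclRER/RER array than on any WT array with its brighter probe. Its brighter probe (ILMN_2734340) was detected on all arrays, with levels of 8.65, 8.54 and 8.22 in SclRER/RER cells and 10.80, 10.59 and 10.60 in WT cells. A gap of 1.94 separated the groups, which was larger than the range of either. The means were 8.47 ± 0.23 in SclRER/RER cells and 10.66 ± 0.11 in WT cells (SD, n = 3 each), and the difference of -2.20 (SE 0.14) is a 4.58-fold lower level. The dimmer probe (ILMN_2661279) was detected on none of the 6 arrays, at 4.74, 4.74 and 4.62 in SclRER/RER cells and 5.58, 5.91 and 6.04 in WT cells. Its detection p was 0.697, 0.714 and 0.964 in SclRER/RER cells and 0.0443, 0.0256 and 0.0186 in WT cells, nearer to detection in WT cells. All these levels lie below the floor, so no size is read from their difference. Over 17 alternatives the difference of the brighter probe lay between -2.28 and -2.0.

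**Figure D2:**
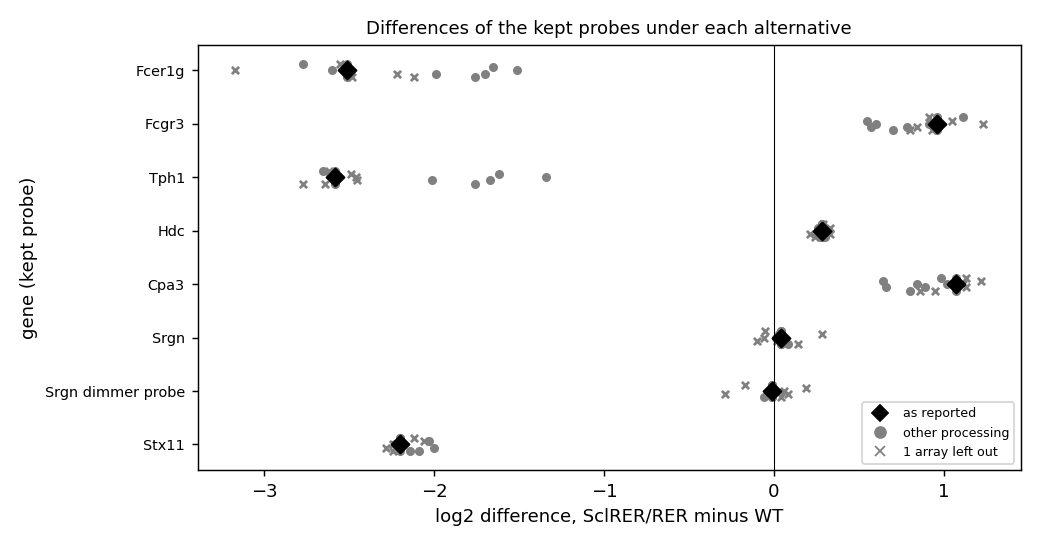
Log2 difference, SclRER/RER minus WT (horizontal axis), of the 8 kept probes (vertical axis) as reported (diamonds), under other processing (circles) and with 1 array left out (crosses). Stx11 stays between -2.28 and -2.0 and Hdc near 0.28, while Tph1 and Fcer1g, whose SclRER/RER values lie mostly below detection, spread over more than 1 unit.

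The patterns over the 6 arrays were set against those of all 6855 genes tested, by the root mean square distance between levels centred on each gene's mean. Nipal2 was the nearest gene to Tph1 at a distance of 0.18 and Stx11 the second nearest at 0.30, the largest distance given here. Tph1 was not among the 2 genes nearest to Stx11, and its SclRER/RER levels all lay below detection. For Stx11 the nearest were Gsta4 at 0.18 and Nipal2 at 0.19. Fcer1g was nearest to Dtd2 at 0.17 and Uap1 at 0.28, Fcgr3 to Grcc10 at 0.08 and Adgre5 at 0.10, and Cpa3 to Fam98b at 0.08 and Fam229b at 0.10. Hdc was nearest to Trim11 and Hmgcs1, both at 0.04, and Srgn to Ankrd28 at 0.07 and Polr1c at 0.08. These distances describe 6 arrays that share a genotype contrast and carry no test.

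Fcer1g and Fcgr3 lie on the same chromosome, 30 places apart in the RefSeq gene order, so the genes beside them were examined in the same fit. Among the 20 genes on each side of either, 69 in all, 21 had a named probe and 11 were tested, of which 1 rose and 1 fell in SclRER/RER cells. Across the array 3.57% of the 6855 genes tested rose and 3.01% fell. Fcgr2b, the inhibitory low-affinity IgG receptor 11 places beyond Fcgr3, rose, with levels of 7.85, 7.62 and 7.02 in SclRER/RER cells and 5.58, 5.99 and 6.13 in WT cells (log2 difference 1.59, SE 0.23, adjusted p = 0.00431). It was detected on all 3 SclRER/RER arrays and no WT array, which makes it at least 2.18-fold higher in the processing used here, and over 16 alternatives its log2 difference was 0.95 to 1.85. The other 2 probes of Fcgr2b were detected on no array, with levels of 4.61 to 5.0 over all 6. Fcgr2b and Fcgr3 are similar in sequence in the mouse, and whether either probe also binds the other's RNA was not tested. Ppox, a heme synthesis gene 4 places from Fcer1g, fell, with means of 9.29 in SclRER/RER cells and 10.06 in WT cells (difference -0.78, SE 0.16, adjusted p = 0.0243), a call lost in 6 of 17 alternatives, among them the removal of either of SclRER/RER arrays 1 and 2 or of any WT array. The genes tested nearest to Fcer1g on its other side were Tomm40l at -0.25 (adjusted p = 0.287) and Sdhc at 0.43 (adjusted p = 0.0563).

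**Figure D3:**
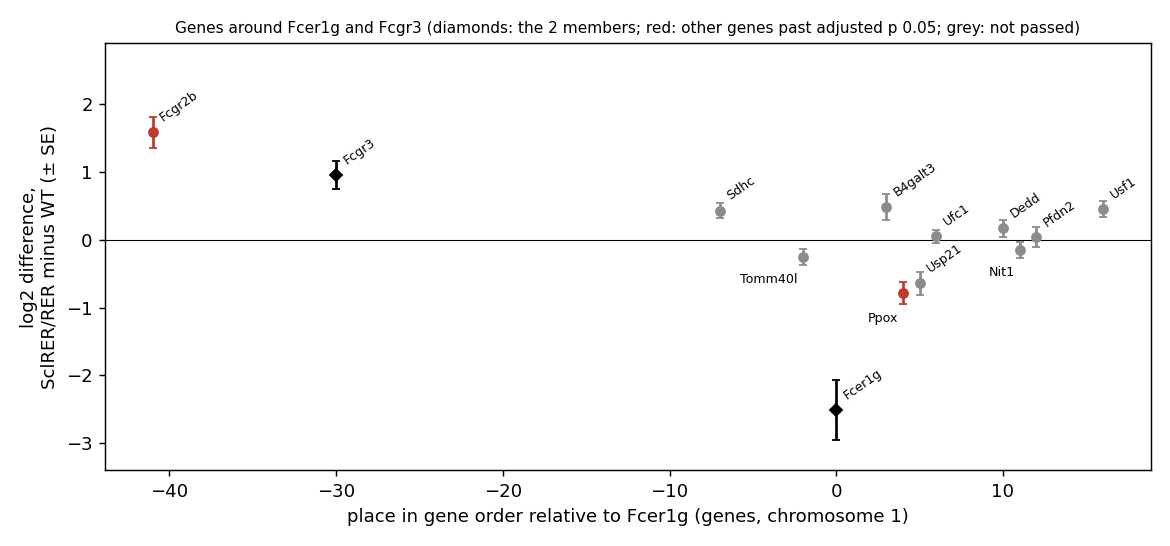
Log2 difference, SclRER/RER minus WT, with its SE (vertical axis) of the genes tested around Fcer1g and Fcgr3, by place in the gene order of chromosome 1 counted from Fcer1g (horizontal axis). The gene order places Fcgr2b (1.59) on the side of Fcgr3 (0.96), and the genes next to Fcer1g (-2.51) lie between -0.78 and 0.48.

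Other genes of these pathways were counted from 8 lists that leave out the members. Of 190 listed genes 179 had a named probe and 83 were tested, and of these 5 rose and 3 fell in SclRER/RER cells (9.64% called, against 6.58% of all genes tested). The median difference of the 83 was 0.04, against 0.02 for all genes. The genes that rose were Fcgr2b, Stx3, Gch1, Papss2 and Il6ra, and those that fell were Ctsg, Chst11 and Chsy1. Of these 8, 4 (Fcgr2b, Stx3, Il6ra and Chst11) were detected in 1 genotype alone and so passed the filter only through the genotype in which they are high. Ctsg, detected on 1 SclRER/RER array and 3 WT arrays, would likewise not have passed without the WT arrays, where it is high. With detection required on all 6 arrays, 3 of 72 genes were called, against 541 of 10127 probes across the array. Of the 8 called genes in the main fit, Ctsg and Chsy1 had 1 probe each. Each of the others had 1 kept probe, of 5 for Il6ra, of 3 for Fcgr2b, Stx3 and Papss2, and of 2 for Gch1 and Chst11. Their probes not kept were detected on no array, apart from that of Gch1, detected on 2 SclRER/RER arrays.

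Downstream of the Fc receptors, none of 16 tested genes of IgE receptor signalling passed the threshold in limma, 2 (Orai1 and Pik3r1) had an unadjusted p under 0.05, and the median difference was 0.07. The largest differences were those of Orai1, the store-operated calcium channel (0.50, SE 0.14, adjusted p = 0.0768), Pik3r1, a phosphoinositide 3-kinase subunit (0.28, SE 0.12, adjusted p = 0.25), and Plcg2, a phospholipase (0.27, SE 0.16, adjusted p = 0.433). Syk, the kinase that binds the phosphorylated gamma chain, was detected on no array and was singled out after its values were seen. Of 24 named Fc receptors and gamma chain partners only 3 were tested, and Fcgr2b was the 1 that rose. The other two were Pigr, the transporter of polymeric immunoglobulin, at -0.30 (adjusted p = 0.492), and the adaptor gene Hcst at 0.09 (adjusted p = 0.74). The receptors with which the gamma chain pairs in other cells, such as Fcgr1, Fcgr4, Gp6 and Clec4e, were not detected on any array.

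Among 15 named proteases of mast cells and basophils 2 were tested and 1 fell. Ctsg, cathepsin G, had levels of 6.27, 5.90 and 5.45 in SclRER/RER cells and 7.69, 7.23 and 7.55 in WT cells, and was detected on 1 SclRER/RER array and all WT arrays. Its log2 difference was -1.62 (SE 0.21, adjusted p = 0.00297), a direction opposite to that of Cpa3. Cma1, a mast cell chymase, was at 6.48, 6.78 and 6.13 in SclRER/RER cells and 6.75, 6.72 and 6.93 in WT cells (difference -0.33, SE 0.17, adjusted p = 0.33). Tryptases, the other chymases and the basophil proteases Mcpt8 and Prss34 were not detected on any array. Of 14 named genes of cytotoxic granules 2 were tested and none passed the threshold in limma or had an unadjusted p under 0.05, Ctsc at -0.23 (adjusted p = 0.277) and Lamp1 at -0.02 (adjusted p = 0.96).

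Around Stx11, 19 genes of granule exocytosis were tested, and 1 rose. Stx3, another syntaxin, had levels of 6.39, 6.75 and 6.39 in SclRER/RER cells and 5.93, 5.80 and 6.01 in WT cells, all of the WT levels below detection (difference 0.60, SE 0.14, adjusted p = 0.0387, at least 1.10-fold higher). Only 4 of 16 alternatives called it, and with undetected values raised to the floor its difference was 0.14 (adjusted p = 0.654). Leaving out SclRER/RER array 2 or any WT array ended the call. Stxbp2, the Munc18 protein that pairs with syntaxin 11, was at -0.26 (SE 0.11, adjusted p = 0.226) and Snap23 at -0.23 (SE 0.13, adjusted p = 0.388). The median of the list was -0.02.

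Around Tph1 and Hdc, 4 of 23 named genes of serotonin and histamine handling were tested, and 1 rose. Gch1 encodes the first enzyme of tetrahydrobiopterin synthesis, the cofactor that Tph1 uses. Its levels were 9.24, 9.21 and 8.75 in SclRER/RER cells and 8.29, 8.27 and 8.04 in WT cells (difference 0.87, SE 0.16, adjusted p = 0.0145), so it differed in the direction opposite to Tph1. Its call was lost when SclRER/RER array 2 or 1 of WT arrays 2 and 3 was left out, at adjusted p of 0.0551, 0.0638 and 0.071. The later pterin enzymes Qdpr and Spr were at 0.23 (adjusted p = 0.289) and -0.02 (adjusted p = 0.961). Ddc, the next enzyme of serotonin synthesis, and the vesicle transporter Slc18a2 were detected on no array.

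For serglycin, whose own level did not differ clearly, 18 genes of glycosaminoglycan chain synthesis were tested, of which 1 rose and 2 fell. Chsy1, a chondroitin synthase, had levels of 10.36, 9.95 and 10.14 in SclRER/RER cells and 11.11, 11.42 and 11.28 in WT cells (difference -1.12, SE 0.14, adjusted p = 0.0026). Chst11, a chondroitin sulfotransferase, had levels of 5.48, 5.25 and 5.58 in SclRER/RER cells and 7.04, 7.04 and 7.05 in WT cells. None of the SclRER/RER arrays and all WT arrays detected it, which makes it at least 1.74-fold lower in SclRER/RER cells (difference -1.61, SE 0.12, adjusted p = 0.000169). Papss2, which makes the sulfate donor, had levels of 8.18, 8.06 and 7.55 in SclRER/RER cells and 6.76, 6.88 and 6.65 in WT cells (difference 1.17, SE 0.17, adjusted p = 0.00507). All 3 kept their calls in every alternative that tested them, and the median of the list was 0.04.

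Of 19 tested factors and cytokine receptors of mast cells, 1 rose. Il6ra, the interleukin 6 receptor, had levels of 7.12, 7.10 and 7.0 in SclRER/RER cells and 6.09, 5.69 and 6.17 in WT cells. It was detected on no WT array and was at least 1.63-fold higher in SclRER/RER cells (difference 1.09, SE 0.15, adjusted p = 0.00324), in the processing used here, and over 16 alternatives its difference was 0.61 to 1.19. Il3ra, the interleukin 3 receptor, was at 0.52 (SE 0.14, adjusted p = 0.0648) and Runx1 at 0.47 (SE 0.12, adjusted p = 0.0533). The receptor Kit was at -0.30 (adjusted p = 0.329), and the factors Gata2 and Mitf were at 0.04 (adjusted p = 0.917) and 0.07 (adjusted p = 0.856). The probe of Tal1 itself had means of 12.77 ± 0.04 in SclRER/RER cells and 12.69 ± 0.12 in WT cells (SD, n = 3 each), which does not check the genotype, since a change within the protein need not alter the RNA level.

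**Figure D4:**
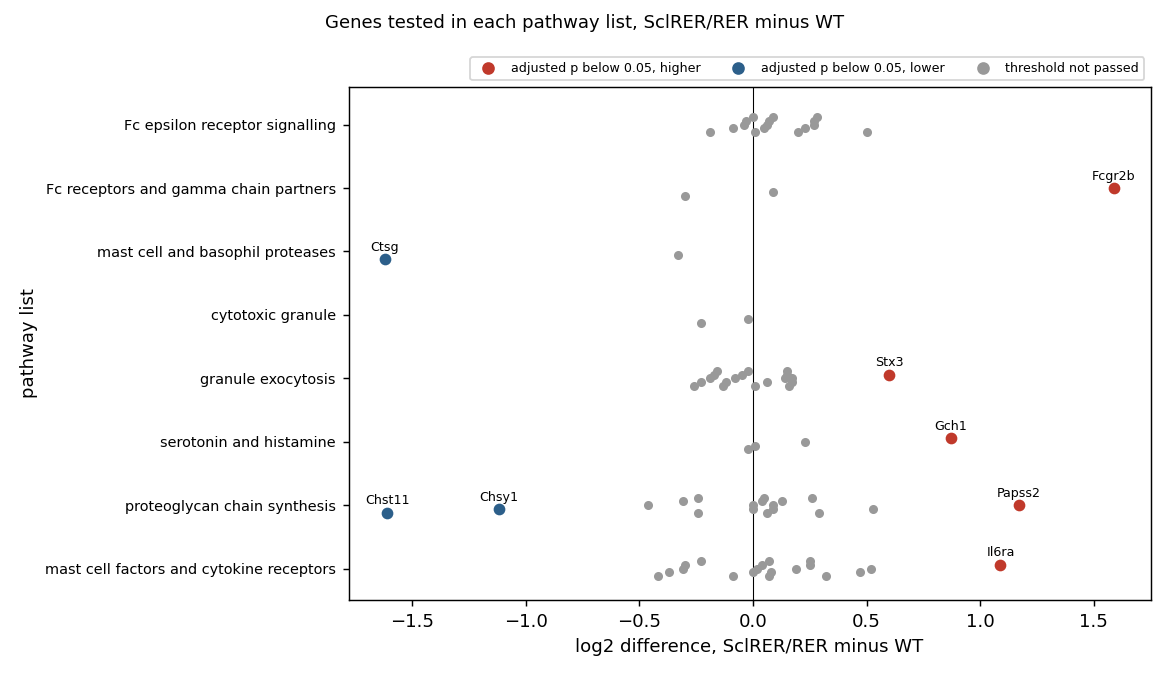
Log2 difference, SclRER/RER minus WT (horizontal axis), of the genes tested in each of 8 pathway lists (rows), with genes past an adjusted p of 0.05 coloured and named. The 5 genes that rose and the 3 that fell stand outside the bulk of grey points, which lie between -0.46 and 0.53.

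Markers listed for the cells these genes are known from were set beside the results. Of 10 named mast cell markers 4 were detected (Cma1, Kit, Mitf and Gata2) and none was called, and the summed linear level of the list was 5333 to 7391 in SclRER/RER cells and 7542 to 7969 in WT cells, with Kit alone at 4121 to 5948 in SclRER/RER cells and 6169 to 6619 in WT cells. The tryptases, Mcpt4, Mrgprb2, Cd200r3 and Slc18a2 were below detection on all arrays. Detection of Kit, Mitf and Gata2 in these erythroid progenitors is not read as a sign of mast cells. Nor is the sum, of which Kit is the larger part, read as an amount of mast cells. Of 6 named basophil markers 2 were detected (Il3ra and Csf2rb), with sums of 383 to 440 in SclRER/RER cells and 334 to 386 in WT cells, and Mcpt8, Prss34, Cd200r3 and Il4 below detection. Of 18 named macrophage and monocyte markers, whose sums were 898 to 1188 in SclRER/RER cells and 905 to 964 in WT cells, 1 was detected, Lyz2, at 9.38, 8.70 and 8.53 in SclRER/RER cells and 8.80, 8.74 and 8.59 in WT cells. No mast cell, basophil or macrophage marker passed the threshold in limma, and 1 of the 7 tested (Il3ra) had an unadjusted p under 0.05.

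Megakaryocyte and myeloid markers were set beside Fcer1g, Tph1 and Stx11, which were lower. Of 5 tested megakaryocyte and platelet genes 4 fell in SclRER/RER cells (Ppbp by 1.88, Pf4 by 1.31, Treml1 by 1.21 and Vwf by 0.98 on the log2 scale, with adjusted p of 0.0207 or less). Gp5, the tested gene that was not called, was at -0.87 (adjusted p = 0.083). The sum of the 10 named was 1246 to 2062 in SclRER/RER cells and 3024 to 3517 in WT cells, with Itgb3 and Gp6 below detection. Of 9 tested neutrophil and early myeloid genes 3 fell (Ctsg by 1.62, Prtn3 by 0.68 and Mpo by 0.63, with adjusted p of 0.0416 or less), and the other 6 did not pass, among them Camp at 0.66 (adjusted p = 0.283), Lcn2 at 0.36 (adjusted p = 0.627) and Ltf at 0.30 (adjusted p = 0.737). The median difference of the list was -0.05, and the sum of the 11 named was 4647 to 11023 in SclRER/RER cells and 7223 to 8149 in WT cells, with Elane and Ms4a3 below detection. Among the erythroid markers 2 of 11 fell, Slc4a1 by 2.35 (adjusted p = 0.00202) and Epor by 0.54 (adjusted p = 0.0199), with sums of 109948 to 124832 in SclRER/RER cells and 119859 to 129936 in WT cells. Epor had 2 kept probes, of which only 1, the brighter, was called. The neutrophil granule markers spread widely among the SclRER/RER arrays. Ngp had levels of 9.51, 8.45 and 7.51 in SclRER/RER cells and 8.45, 8.60 and 8.45 in WT cells. Ltf had levels of 9.72, 8.77 and 7.99 in SclRER/RER cells and 8.47, 8.66 and 8.46 in WT cells. S100a9 had levels of 10.93, 9.84 and 9.29 in SclRER/RER cells and 10.12, 10.26 and 9.82 in WT cells. SclRER/RER array 1 was the highest and array 3 the lowest of the SclRER/RER arrays for these 3 markers and Lyz2, as for Ms4a2, both Srgn probes and the brighter Stx11 probe. The part of these lists in the differences of the 10 genes was not tested.

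**Figure D5:**
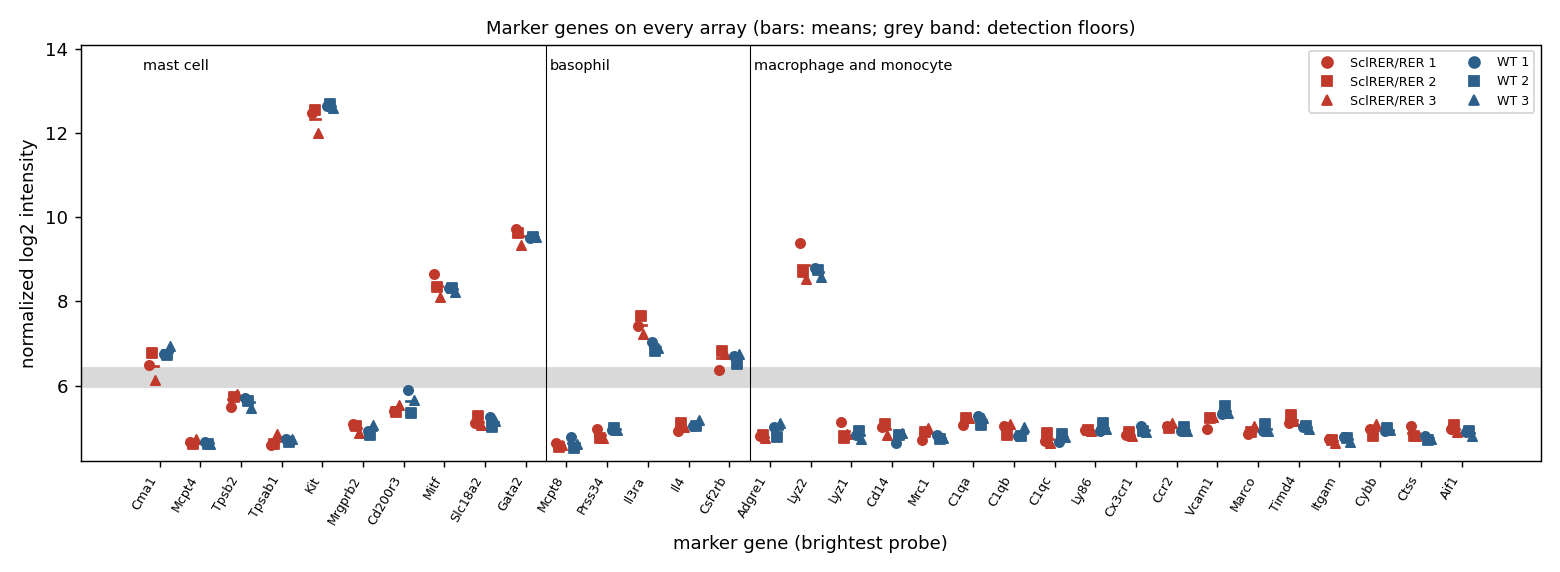
Normalized log2 intensity (vertical axis) of the mast cell, basophil and macrophage markers with a named probe (horizontal axis) on each array, SclRER/RER left of WT, with bars at group means and the detection floors of the 6 arrays in grey. Kit, Gata2, Mitf, Lyz2 and Il3ra lie above the floors in both genotypes, Cma1 and Csf2rb near them, and the other markers below.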

How the data were processed

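The deposited non-normalized table gives a linear signal intensity for 46632 probes on each of 6 arrays, per the file headers, with no scaling between arrays. Beside each signal stands a detection score, deposited as a fraction that rises with the signal and was subtracted from 1 to give a detection p-value. On WT array 3 the column did not follow its signals (Spearman 0.899, against 0.996 or more on the others), so its probes were given, by rank of signal, the average score of the other two WT arrays. A second deposited table holds normalized linear intensities of the authors and served as an alternative. Limma is named per the submitters' processing notes, without a version. A genome build of the array design is not given in the sources.

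Signals were corrected by normexp with background parameters from the detection p-values (offset 16), quantile normalized and put on the log2 scale with limma 3.58.1 in R 4.3.3. Probes detected (p below 0.01) on 3 or more of 6 arrays were fitted by genotype (lmFit, eBayes), with Benjamini-Hochberg adjustment over all of them. A gene was represented by its brightest kept probe. The platform annotation pairs 29976 probes with 1 gene symbol, 10 probes with several and 16646 with none, and symbols were updated for the 29921 found in the RefSeq gene table (GRCm38.p6). Precision is limited by 3 arrays a genotype.

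The bounds written as at least N-fold set the mean of the detected genotype against the detection floor of each array of the other. The members, pathway lists and marker lists were chosen with earlier results of these data known. The text names all members, every called gene of a pathway list and otherwise the largest differences up to 3 a list. It also names the called markers, the detected mast cell, basophil and macrophage markers, and some of the other markers. The 2 genes nearest in pattern to each member are named as well. The alternatives changed the background correction, scaling, source table, detection filter, scores, floor, array weights, replicate block and probe choice, and left out each array in turn. Groups of 3 are too small for an outlier test.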

Additional observations from a re-analysis of the deposited data

How the results depend on the processing

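No called member difference changed sign, over 17 alternatives for Stx11 and 16 each for Fcer1g, Fcgr3, Tph1 and Cpa3. These members were chosen with their differences on the same 6 arrays known, and their groups did not overlap. A change of sign was therefore hardly possible, and nothing is read from its absence. The number of probes called (762 of 11578; 2268 at an unadjusted p under 0.05) was 1209 with array weights and 301 to 979 with 1 array left out. Across the array, 509 of 46632 probes were called with no detection filter and 541 of 10127 with detection on all 6 arrays. At a detection p below 0.05 on at least 3 arrays, 791 of 15513 were called. Member probes called (5 of 8) were 3 of 13 with no detection filter and 6 of 10 at a detection p below 0.05 on at least 3 arrays. They were 1 of 4 with detection on all 6 arrays, and 2 to 5 with 1 array left out. Pathway genes called (8 of 83) were 3 of 72 with detection on all 6 arrays, where fewer genes are tested, and 6 to 10 with 1 array left out, and 9 with the mean over a gene's kept probes. Neighbours of Fcer1g and Fcgr3 called (2 of 11) were 1 of 21 with no filter, 1 of 10 with detection on all 6 arrays, 4 with array weights, and 1 to 6 with 1 array left out. Apart from the filter, the cause was not tested. Without background correction the differences were -1.70 for Fcer1g, 0.57 for Fcgr3, -1.67 for Tph1, 0.66 for Cpa3 and -2.0 for Stx11, and on the authors' normalized values they were -1.65, 0.55, -1.62 and 0.64 for the first 4. For Tph1 the difference was -1.76 with an offset of 50 and -2.01 with the scores as deposited.

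Same-numbered samples did not pair (correlations of their deviations 0.16, -0.03 and 0.07). With the replicate number as a block, 726 probes, 5 member probes, 7 pathway genes and 2 neighbours were called. Near the detection floor, signal over background limits the size of a difference.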

Other observations

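The genes beside the other members were examined after the results for Fcer1g and Fcgr3 were seen, over 20 genes on each side. In all 6 of 47 tested genes were called, against 6.58% of genes across the array, a number too small to read further. Ackr1 was the only 1 called of 3 beside Fcer1a and was detected on no SclRER/RER array, with a mean log2 level of 5.37 in SclRER/RER cells and 6.99 in WT cells (limma, adjusted p = 0.00156). Stx3 was the only 1 called of 3 within 20 places of Ms4a2, a call that 12 of 16 alternatives lost, and Ctsg the only 1 of 4 within 20 places of Gzmb. Beside Tph1 1 of 9 was called, Saa3, which was detected on no WT array, with means of 7.21 in SclRER/RER cells and 5.72 in WT cells (adjusted p = 0.00456), the opposite direction to Tph1. Beside Hdc it was Blvra, 1 of 11, with means of 10.28 in SclRER/RER cells and 10.97 in WT cells (adjusted p = 0.0113). Beside Stx11 it was Adat2, 1 of 6, with means of 10.53 in SclRER/RER cells and 9.22 in WT cells (adjusted p = 0.00201), opposite to Stx11. None of 4 beside Cpa3 and none of 7 beside Srgn passed the threshold in limma, and 1 and 0 of these had an unadjusted p under 0.05.

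The deposited detection score of WT array 3 would change how near some members lie to detection. Read as deposited, the detection p of Fcgr3 on that array was 0.211, against 0.0235 at the rank of its signal, and that of the brighter Cpa3 probe was 0.182, against 0.0324. Both readings leave these probes undetected there, and Fcer1g, Tph1, Hdc, Srgn and the brighter Stx11 probe were detected on it under both.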
